A study of Mus musculus with 6 samples.

Results

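The genes described are 10 genes of de novo lipogenesis, the synthesis of fatty acids from carbohydrate carbon, taken by symbol from the 48432 genes of the deposited table. They are Srebf1, Acly, Acss2, Acaca, Acacb, Fasn, Me1, Elovl6, Thrsp and Pnpla3. RNA sequencing was done on livers of 10-week-old mice in 2 groups of 3 libraries, numbered 0, 1 and 2 in the labels. The Li-KO group has a knockout, specific to the liver, of Klf15, the gene of a zinc finger transcription factor of the Kruppel-like family, and the Ctl group carries Albumin-Cre, a transgene that expresses Cre recombinase from the albumin promoter of hepatocytes. The labels do not name the Cre of the Li-KO group or the part of Klf15 removed. They give neither the sex of the mice, nor the feeding state, nor the time of day, nor whether each library is a mouse of its own, so the spread behind each p-value is that between libraries and may be technical. RNA was total RNA of whole liver, in which fewer cells of a type and less RNA per cell cannot be told apart.

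In de novo lipogenesis, citrate leaves the mitochondrion and is split to acetyl-CoA, which is carboxylated to malonyl-CoA and then condensed into palmitate with NADPH as the reductant. In liver the genes of this route are driven by insulin through SREBP-1c, a product of Srebf1, and by sugar through ChREBP, a product of Mlxipl. SREBP-1 is made as a membrane-bound precursor that is cut to become active, so the level of its RNA is not a measure of its activity.

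The libraries held 30132499 to 42782318 fragments. Klf15 was at 54.3, 41.6 and 51.8 CPM (counts scaled by library size) in Li-KO replicates 0, 1 and 2, and at 345, 174 and 196 CPM in Ctl replicates 0, 1 and 2. None of the 10 lipogenic genes was among the 77 genes that the authors' software skipped for too many fragments, and all 10 passed the filter on low counts. All but Me1 and Pnpla3 had at least 2581 fragments in every library, and the lowest value was 63 fragments, for Pnpla3 in Ctl replicate 2. Replicate libraries of a group differed by more than counting noise. Li-KO replicate 0 stood apart in some markers of other cell types. It was the highest of all libraries in 4 of 8 stellate cell and fibroblast markers and 2 of 6 cholangiocyte markers. The same held for 6 of 10 Kupffer cell markers and 7 of 10 lymphocyte and neutrophil markers. By contrast, Li-KO replicate 0 was the highest in 1 of 8 sinusoidal endothelium markers and 0 of 6 erythroid markers. The share of all genes that were highest in that library was not computed. Summed Kupffer cell markers were highest in Ctl replicate 2, at 523.9 CPM, against 500.3 CPM in Li-KO replicate 0. Each lymphocyte and neutrophil marker had at most 65 fragments in Li-KO replicate 0. Col3a1, a fibrillar collagen, was at 237, 91.8 and 46.7 CPM in Li-KO replicates 0, 1 and 2, and at 40.3, 53.6 and 63.9 CPM in Ctl replicates 0, 1 and 2. Spp1, osteopontin, was at 144, 56.8 and 40.4 CPM in Li-KO and 18.9, 31.9 and 42.8 CPM in Ctl. Other stellate cell and fibroblast markers were lowest of all libraries in Li-KO replicate 0. Reln was at 205, 252 and 239 CPM in Li-KO and 247, 228 and 231 CPM in Ctl. Dcn was at 143, 148 and 189 CPM in Li-KO and 217, 200 and 206 CPM in Ctl. The part of these cells in the lipogenic values was not tested, and values without that library are given beside the results they change.

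The 10 genes did not move as a block. Acaca, Fasn and Me1 fell in Li-KO liver and Acss2 rose, while Srebf1, Acly, Acacb, Elovl6, Thrsp and Pnpla3 did not pass the test (edgeR quasi-likelihood test with Benjamini-Hochberg adjustment, adjusted p under 0.05). Of all 16533 genes tested, 12% were called, made up of 6.11% higher and 5.9% lower in Li-KO liver. Of the 10 lipogenic genes, 1 was called higher and 3 lower, and without Li-KO replicate 0 the counts were 0 higher and 3 lower. The median log2 fold change, Li-KO minus Ctl, was 0.20 over the 10 genes and -0.01 over all genes tested. The 3 values of Li-KO did not overlap those of Ctl in 5 of the 10 genes, with 4 lower and 1 higher, while this was so for 35.2% of all genes tested, 17.8% lower and 17.4% higher.

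**Figure D1:**
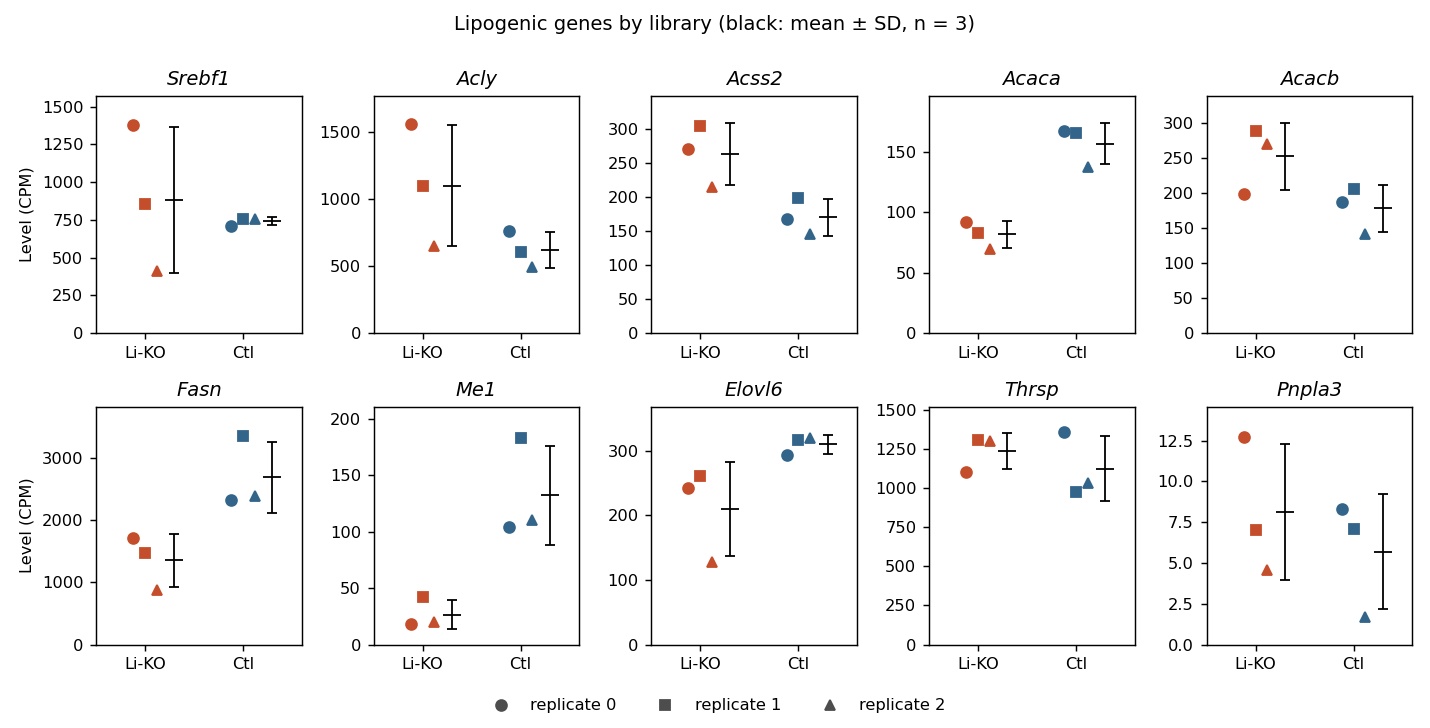
Level of each lipogenic gene in CPM (vertical axes from 0), with 1 point per library, Li-KO at the left and Ctl at the right; symbols mark the replicate number and black bars the mean ± SD of 3 libraries. Acaca, Fasn and Me1 lie lower in every Li-KO library than in every Ctl library, and Srebf1 spreads from 409.8 to 1380.1 CPM within Li-KO against 709 to 757 CPM within Ctl.

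Srebf1 (ENSMUSG00000020538.15, chromosome 11, 60199089 to 60222581, minus strand, mm10) encodes SREBP-1a and SREBP-1c from different start sites, which gene-level counts do not separate. Its level was 1380.1, 856 and 409.8 CPM in Li-KO replicates 0, 1 and 2, and 709, 757 and 754 CPM in Ctl replicates 0, 1 and 2. One Li-KO library was above and another below all Ctl libraries, so the groups overlapped. The mean was 882 ± 486 CPM in Li-KO and 739.9 ± 26.5 CPM in Ctl (SD, n = 3 each), a log2 fold change of 0.25 ± 0.36 (SE) with an edgeR adjusted p of 0.683. The SD was 55.1% of the mean in Li-KO and 3.58% in Ctl. The direction was not firm, since without Li-KO replicate 0 the log2 fold change was -0.20. With all 6 libraries it was 0.098 by limma-voom and 0.0045 by limma on log2(FPKM + 1).

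Acly and Acss2 supply cytosolic acetyl-CoA, Acly (ATP citrate lyase) from citrate and Acss2 (acyl-CoA synthetase short-chain family member 2) from acetate. Acss2 (ENSMUSG00000027605.18, chromosome 2, 155517948 to 155585724, plus strand) was at 271, 305 and 215 CPM in Li-KO replicates 0, 1 and 2, and at 168, 199 and 145 CPM in Ctl replicates 0, 1 and 2. Every Li-KO library was above every Ctl library. The log2 fold change was 0.63 ± 0.17 with an edgeR adjusted p of 0.0484, just under the threshold. The call of Acss2 ended when any library other than Li-KO replicate 2 was left out, with adjusted p of up to 0.170, and with limma on log2(FPKM + 1) (adjusted p = 0.0890) or upper quartile scaling (adjusted p = 0.0526). The exons of Acss2 share 395 bases with those of Gss, glutathione synthetase, on the opposite strand, and the sources used here do not give the strand setting of the authors' counting. Gss was at 139, 109 and 97.0 CPM in Li-KO against 76.5, 68.2 and 74.3 CPM in Ctl, with an edgeR adjusted p of 0.0289, and its part in the Acss2 value was not tested.

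Acly (ENSMUSG00000020917.17, chromosome 11, 100476353 to 100528000, minus strand) was at 1553, 1094 and 648 CPM in Li-KO replicates 0, 1 and 2, and at 759, 605 and 494 CPM in Ctl replicates 0, 1 and 2. Only Li-KO replicate 2, which was below Ctl replicate 0, kept the groups from separating. The log2 fold change was 0.83 ± 0.30, larger than that of Acss2, and the edgeR adjusted p was 0.110. It passed without Li-KO replicate 2 (adjusted p = 0.0225) and by DESeq2 (adjusted p = 0.0218). Without Li-KO replicate 0 the log2 fold change was 0.51 (edgeR adjusted p = 0.250).

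Acaca and Acacb encode the acetyl-CoA carboxylases ACC1 and ACC2. ACC1 makes the cytosolic malonyl-CoA used for fatty acid synthesis, and ACC2, at the mitochondrial outer membrane, makes malonyl-CoA that inhibits the entry of fatty acids for oxidation. Acaca (ENSMUSG00000020532.18, chromosome 11, 84129672 to 84401651, plus strand) was at 91.9, 82.9 and 69.9 CPM in Li-KO replicates 0, 1 and 2, and at 167, 165 and 137 CPM in Ctl replicates 0, 1 and 2. The highest Li-KO library was well below the lowest Ctl library. The log2 fold change was -0.94 ± 0.14 with an edgeR adjusted p of 0.00775, and it stayed between -1.03 and -0.85 when each library was left out in turn, with the call kept in all 6 such fits.

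Acacb (ENSMUSG00000042010.16, chromosome 5, 114146535 to 114250761, plus strand) was at 198, 289 and 269.8 CPM in Li-KO replicates 0, 1 and 2, and at 188, 206 and 141 CPM in Ctl replicates 0, 1 and 2. The groups overlapped through Li-KO replicate 0, and the log2 fold change of 0.50 ± 0.19 did not pass (edgeR adjusted p = 0.120). Within a library, the ratio of Acacb to Acaca in FPKM, fragments scaled by gene length and library size, does not depend on the scaling between libraries. It was 2.30, 3.74 and 4.44 in Li-KO replicates 0, 1 and 2, and 1.25, 1.34 and 1.09 in Ctl replicates 0, 1 and 2. ACC2 transcript exceeded ACC1 transcript per length in all 6 libraries, by 3.36-fold in Li-KO and 1.22-fold in Ctl as geometric means. The difference in log2 ratio was 1.46, with no overlap between the groups. The exact two-sided permutation p was 0.10, the smallest that 3 libraries against 3 allow, and 0.30 adjusted over the 3 ratios tested.

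Fasn (ENSMUSG00000025153.9, chromosome 11, 120805846 to 120824547, minus strand) encodes fatty acid synthase, which builds palmitate. Its level was 1701, 1474 and 869 CPM in Li-KO replicates 0, 1 and 2, and 2316, 3343 and 2379 CPM in Ctl replicates 0, 1 and 2. All Li-KO libraries were below all Ctl libraries, with means of 1348 ± 430.2 CPM in Li-KO and 2679 ± 576 CPM in Ctl. The log2 fold change was -0.99 ± 0.27 with an edgeR adjusted p of 0.0476. The call of Fasn ended when any library other than Li-KO replicate 0 was left out (adjusted p of up to 0.172), with limma on log2(FPKM + 1) (adjusted p = 0.0629) and with upper quartile scaling (adjusted p = 0.0536), while the log2 fold change stayed between -1.17 and -0.76 without each library.

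The balance of Fasn and Acly differed between the groups. Their FPKM ratio, chosen after the values were seen and not tested, was 0.470, 0.589 and 0.651 in Li-KO replicates 0, 1 and 2, and 1.49, 2.50 and 2.23 in Ctl replicates 0, 1 and 2. In Ctl liver Fasn was the higher of this pair in every library, and in Li-KO liver Acly was. The ratio of Acss2 to Acly, the enzymes of the acetyl-CoA step, was 0.229, 0.370 and 0.454 in Li-KO and 0.313, 0.448 and 0.423 in Ctl. Those groups overlapped (exact two-sided permutation p = 0.70, and 0.70 adjusted over the 3 ratios), and the direction turned without Li-KO replicate 0.

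**Figure D2:**
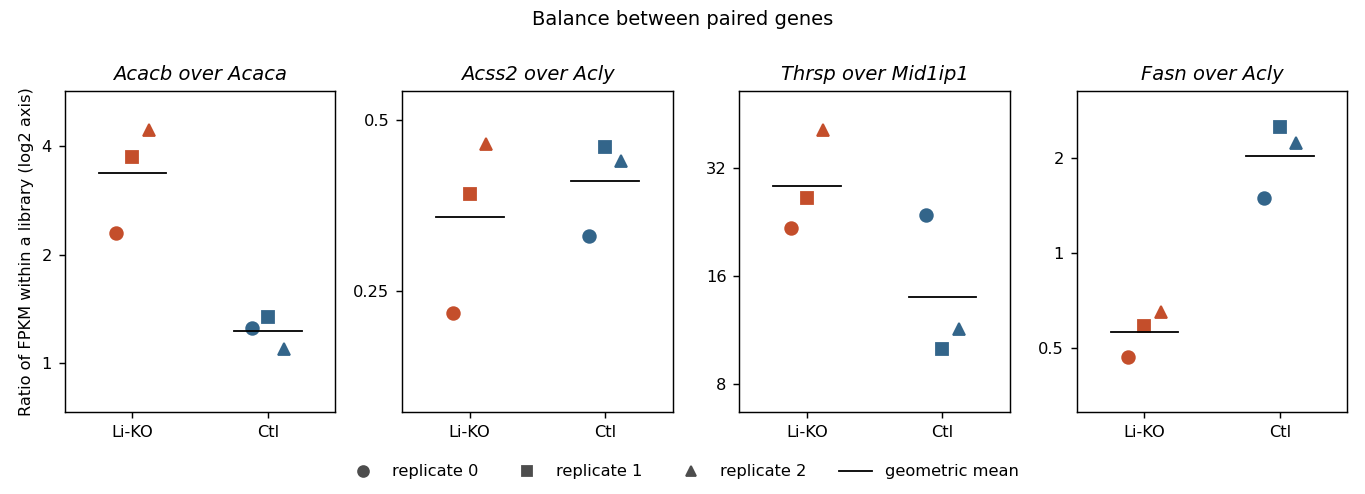
Ratio of FPKM between paired genes within each library on a log2 axis, with 1 point per library and a line at the geometric mean, Li-KO at the left and Ctl at the right of each panel. The ratio of Acacb to Acaca is 2.30 to 4.44 in Li-KO and 1.09 to 1.34 in Ctl, and that of Fasn to Acly is 0.470 to 0.651 in Li-KO and 1.49 to 2.50 in Ctl.

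Me1 (ENSMUSG00000032418.15, chromosome 9, 86581371 to 86695953, minus strand), the cytosolic malic enzyme that yields NADPH, had the largest fold change of the 10 genes. It was at 17.8, 41.8 and 20.1 CPM in Li-KO replicates 0, 1 and 2, and at 104, 183 and 110.3 CPM in Ctl replicates 0, 1 and 2. Replicate 1 was the highest library in each group, and the groups were far apart. The means were 26.6 ± 13.2 CPM in Li-KO and 132 ± 44.0 CPM in Ctl, which is 4.98-fold lower in Li-KO. The log2 fold change was -2.32 ± 0.36 with an edgeR adjusted p of 0.00831, and it was -2.80 to -1.99 without each library, called in all 6 such fits.

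Elovl6 (ENSMUSG00000041220.10, chromosome 3, 129532355 to 129638495, plus strand) encodes the elongase that extends palmitate to stearate. It was at 242, 261 and 127 CPM in Li-KO replicates 0, 1 and 2, and at 293, 316 and 320.1 CPM in Ctl replicates 0, 1 and 2. All Li-KO libraries were lower than all Ctl libraries, but by little in replicates 0 and 1, and the log2 fold change of -0.56 ± 0.24 did not pass (edgeR adjusted p = 0.165). Li-KO replicate 2 decided its size, with a log2 fold change of -0.31 without that library.

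Thrsp (ENSMUSG00000035686.8, chromosome 7, 97412938 to 97417730, minus strand) encodes Spot 14, a thyroid hormone-responsive protein that acts with its paralog Mid1ip1 on the polymerisation of acetyl-CoA carboxylase. It was at 1099.7, 1304 and 1302 CPM in Li-KO replicates 0, 1 and 2, and at 1357, 976 and 1034 CPM in Ctl replicates 0, 1 and 2. The highest library of all was a Ctl library, and the groups overlapped. The log2 fold change was 0.14 ± 0.17 (edgeR adjusted p = 0.639). Mid1ip1 averaged 65.5 ± 16.8 CPM in Li-KO and 119 ± 31.6 CPM in Ctl, a log2 fold change of -0.86 ± 0.25 with an edgeR adjusted p of 0.0550. The FPKM ratio of Thrsp to Mid1ip1 was 21.8, 26.3 and 40.8 in Li-KO and 23.7, 10.03 and 11.4 in Ctl, with an exact two-sided permutation p of 0.20, and 0.30 adjusted over the 3 ratios.

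Pnpla3 (ENSMUSG00000041653.4, chromosome 15, 84167837 to 84187236, plus strand), a lipid droplet protein and SREBP-1c target with lipase and acyltransferase activity in vitro, was the least abundant of the 10. It was at 12.7, 7.03 and 4.59 CPM in Li-KO replicates 0, 1 and 2, and at 8.29, 7.08 and 1.67 CPM in Ctl replicates 0, 1 and 2. The groups overlapped widely, and the log2 fold change was 0.51 ± 0.56 with an edgeR adjusted p of 0.587.

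**Figure D3:**
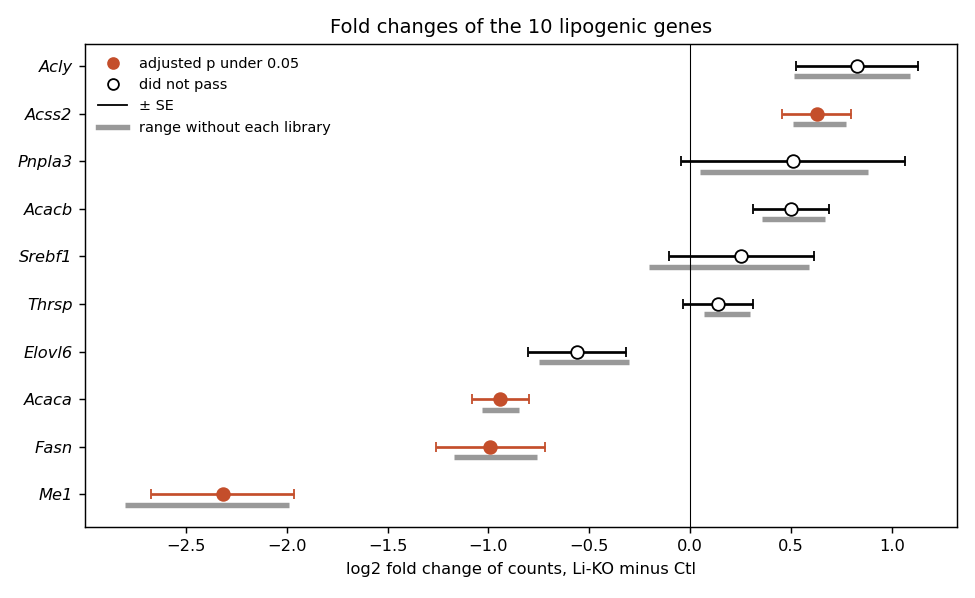
log2 fold change of counts, Li-KO minus Ctl, for the 10 lipogenic genes (horizontal axis; points with bars for the SE, filled where the edgeR adjusted p is under 0.05). Grey lines span the values without each library in turn; those of Me1 run from -2.80 to -1.99 and those of Srebf1 cross 0, from -0.20 to 0.59.

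Levels per length ranked the genes much alike in both groups. Thrsp was the highest in each, at 800.0 ± 96.1 FPKM in Li-KO and 719 ± 142 FPKM in Ctl, and Pnpla3 the lowest, at 1.27 ± 0.647 FPKM in Li-KO and 0.922 ± 0.565 FPKM in Ctl. Acly, Srebf1 and Fasn followed Thrsp in Li-KO at 206 ± 86.5, 159 ± 80.1 and 112 ± 30.9 FPKM. The spreads of these means overlap, but each Li-KO library kept this order. In Ctl the order was Fasn, Srebf1 and Acly at 229 ± 46.2, 144 ± 4.83 and 113 ± 24.3 FPKM. Each Ctl library kept that order, with Srebf1 and Acly close in Ctl replicate 0, at 139 and 138 FPKM. Acss2 held rank 5 and Elovl6 rank 6 in both groups. Me1 held rank 8 in Li-KO, at 6.06 ± 3.17 FPKM beside Acaca at 6.01 ± 0.844 FPKM, and rank 7 in Ctl, at 31.6 ± 10.9 FPKM.

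Among the Li-KO libraries several of these genes were ordered alike. Srebf1, Acly, Acaca, Fasn and Pnpla3 were highest in Li-KO replicate 0 and lowest in Li-KO replicate 2. Elovl6 and Acss2 were also lowest there but highest in Li-KO replicate 1, while Thrsp, Acacb and Me1 were lowest in Li-KO replicate 0. Within Li-KO the markers Col3a1 and Spp1 had the order of Srebf1, while Dcn and Cftr, from the same marker lists, had the reverse order. The order of Cftr rests on only 8, 10 and 22 fragments in Li-KO replicates 0, 1 and 2. Within Li-KO the highest library was 3.37 times the lowest for Srebf1, 2.40 times for Acly and 1.96 times for Fasn, and within Ctl these ratios were 1.07, 1.54 and 1.44.

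Other genes were ranked by how near their log2 CPM profile over the 6 libraries was to that of Srebf1. The measure was the root mean square difference of values centred on each gene's mean. Genes with a mean CPM under 10 were left out, as were symbols starting with Gm and a digit or with ENSMUSG, or ending in Rik. The 5 nearest were Myh10 (0.18), Dbp (0.21), Krt8-ps (0.21), Fgfr1 (0.24) and Ncald (0.24). Among the lipogenic genes the nearest were Acly (0.42) and Elovl6 (0.45), and Me1 was the farthest (1.41). Dbp, for example, was at 58.7, 38.1 and 19.9 CPM in Li-KO replicates 0, 1 and 2, and at 23.8, 36.7 and 39.9 CPM in Ctl replicates 0, 1 and 2. None of these 5 genes passed the test between groups, with edgeR adjusted p of 0.241 to 0.731.

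Libraries made with the stranded total RNA kit can hold unspliced transcripts, and some genes are annotated inside introns of the lipogenic genes with no exonic base shared. In Me1, Gm38230, on the same strand, had 5, 8 and 13 fragments in Li-KO replicates 0, 1 and 2, and 64, 56 and 37 fragments in Ctl replicates 0, 1 and 2. Its log2 fold change was -2.42 ± 0.47 (edgeR adjusted p = 0.0169), beside -2.32 for Me1. In Acaca, Gm37391, on the same strand, had a log2 fold change of -1.08 ± 0.40 (edgeR adjusted p = 0.117), beside -0.94 for Acaca. In Elovl6, Gm43072, on the same strand, had 271, 325 and 203 fragments in Li-KO and 804, 1934 and 466 in Ctl, a log2 fold change of -1.80 ± 0.51 (edgeR adjusted p = 0.0539), beside -0.56 for Elovl6. In Acss2, the processed pseudogene Mipep-ps, on the same strand, had 16, 25 and 12 fragments in Li-KO and 4, 4 and 5 in Ctl. Its log2 fold change was 2.22 ± 0.61 (edgeR adjusted p = 0.0494), beside 0.63 for Acss2. Gm20637, also on that strand in Acss2, had a log2 fold change of 1.14 ± 0.73 (edgeR adjusted p = 0.337). Whether these fragments are separate transcripts or unspliced RNA of the host gene cannot be told apart here.

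Of the 10 genes, 4 lie on chromosome 11 (Srebf1, Acaca, Acly and Fasn). RefSeq gave 13 start sites for the 10 genes, and the 250 bases before each start were searched on both strands for 5 motifs. CCAAT, the letters bound by NF-Y, a partner of SREBP, was found in 8 of the 13 windows, from 7 of the 10 genes, and in 33.8% of all 32851 such windows. GGGCGG, a GC box bound by Sp1 and Kruppel-like factors, was found in 6 of the 13 windows, from 5 genes, and in 32.7% of all windows. CCACCC, which can overlap it, was found in 5 of the 13 windows, from 3 genes, and in 28.1% of all windows. The E-box CACGTG (6.02% of all windows) and TCACNCCAC, the letters of the sterol element of the LDL receptor gene (1.05%), were in none of the 13 windows. Not every window lies before the annotated gene. Those of Acaca and Acacb lie inside it. So do the Srebf1 windows at chr11:60220628-60220877 and chr11:60210472-60210721 and the Me1 window at chr9:86687278-86687527. Annotated exons cover 180 of the 250 bases for Thrsp, 129 for Elovl6 and 95 for Acss2. They cover 39 bases of the Me1 window at chr9:86695915-86696164 and 9 of the Acacb window. The CCAAT matches of Thrsp and Acss2 are not in the stretch before the exon. The windows printed here are shown for Fasn, which fell, for Acss2, which rose, for Acly, the abundant gene set against Fasn, and for the most downstream of the 3 Srebf1 starts. Capitals mark CCAAT and GGGCGG on either strand (RefSeq, GRCm38.p6, 5′ to 3′ on the gene's strand).
Fasn, chr11:120824548-120824797, minus strand: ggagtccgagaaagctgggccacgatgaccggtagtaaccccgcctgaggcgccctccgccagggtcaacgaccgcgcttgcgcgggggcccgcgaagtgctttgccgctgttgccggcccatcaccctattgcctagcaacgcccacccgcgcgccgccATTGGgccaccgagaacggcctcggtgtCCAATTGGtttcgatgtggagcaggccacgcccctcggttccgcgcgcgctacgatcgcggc
Acly, chr11:100528001-100528250, minus strand: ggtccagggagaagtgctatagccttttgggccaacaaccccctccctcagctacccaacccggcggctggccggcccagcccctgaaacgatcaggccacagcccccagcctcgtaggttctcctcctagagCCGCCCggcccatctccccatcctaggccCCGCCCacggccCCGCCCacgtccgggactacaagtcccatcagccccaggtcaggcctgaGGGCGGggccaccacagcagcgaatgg
Acss2, chr2:155517793-155517947, plus strand: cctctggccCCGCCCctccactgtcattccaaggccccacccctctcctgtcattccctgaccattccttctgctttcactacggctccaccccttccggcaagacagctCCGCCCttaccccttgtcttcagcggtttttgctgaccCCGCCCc
Srebf1, chr11:60210472-60210721, minus strand: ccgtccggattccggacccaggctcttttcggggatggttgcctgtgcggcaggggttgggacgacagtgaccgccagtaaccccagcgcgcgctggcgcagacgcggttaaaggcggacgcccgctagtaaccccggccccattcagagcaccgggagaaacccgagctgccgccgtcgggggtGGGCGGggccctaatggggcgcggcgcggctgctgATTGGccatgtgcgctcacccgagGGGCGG

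The Fasn window held 3 CCAAT matches, 2 of them overlapping on opposite strands, and no GC box. The Acly window held 4 GC boxes and no CCAAT. The Acss2 stretch ends where an annotated exon begins, and its full window held 4 GC boxes and 1 CCAAT. The Srebf1 window held 1 CCAAT and 2 GC boxes. Among windows not printed, that of Me1, which fell, at chr9:86695915-86696164 held 3 GC boxes and no CCAAT. The Me1 window at chr9:86687278-86687527 held 1 CCAAT and no GC box. The window of Acaca, which also fell, held neither motif. Whether these motifs go with the direction of change was not tested.

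Upstream of the lipogenic genes, the machinery that cuts SREBP showed no called change. Of 11 genes of SREBP processing and turnover, all tested, 0 rose and 0 fell by the edgeR test, with log2 fold changes between -0.28 and 0.27 and a lowest adjusted p of 0.284. None had an unadjusted p under 0.05, against 29.4% of all genes tested (14.6% higher and 14.8% lower), and DESeq2 and limma-voom called 0 as well. Insig2, which also retains the SREBP-Scap complex, was called lower without Li-KO replicate 2 (log2 fold change -0.54, edgeR adjusted p = 0.0378), against -0.09 in the fit of all 6 libraries. Scap, the escort of SREBP to the Golgi, averaged 148 ± 9.49 CPM in Li-KO and 152 ± 17.2 CPM in Ctl. Insig1, which retains the SREBP-Scap complex in the endoplasmic reticulum and is itself an SREBP target, averaged 636 ± 55.2 CPM in Li-KO and 579 ± 37.1 CPM in Ctl.

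Of 19 genes that feed into lipogenic transcription, 2 rose and 2 fell, with a median log2 fold change of -0.01. The share called was 21.1%, against 12% of all genes tested. Nr1h3, the liver X receptor alpha, which activates Srebf1, rose to 140.3 ± 15.0 CPM in Li-KO, against 100.1 ± 3.02 CPM in Ctl (log2 fold change 0.49 ± 0.12, edgeR adjusted p = 0.0338). Mlxipl, which encodes ChREBP, fell to 227 ± 13.6 CPM in Li-KO, against 332.5 ± 56.0 CPM in Ctl (log2 fold change -0.55 ± 0.15, edgeR adjusted p = 0.0492). Mlxipl kept its call only in the fit without Ctl replicate 2 (adjusted p of up to 0.189 in the others). Sp1 also fell and Nfyc, an NF-Y subunit, rose. Without Ctl replicate 1, Li-KO replicate 0 or Li-KO replicate 1 none of the 19 genes was called. Without Ctl replicate 0 or Ctl replicate 2 the counts were 0 higher and 1 lower, and without Li-KO replicate 2 they were 3 higher and 3 lower. Calls over all genes fell too, from 1010 higher and 976 lower to 198 and 234 without Ctl replicate 1. Without each library the log2 fold change stayed at 0.42 to 0.55 for Nr1h3 and -0.68 to -0.43 for Mlxipl. It stayed at -0.79 to -0.56 for Sp1 and 0.60 to 0.75 for Nfyc.

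Of 22 genes of carbon and NADPH supply, 2 rose and 4 fell, with a median log2 fold change of 0.01. The share called was 27.3%, against 12% of all genes tested. Pfkfb1, the liver bifunctional enzyme of fructose-2,6-bisphosphate, fell to 3.74, 5.49 and 6.25 CPM in Li-KO replicates 0, 1 and 2, against 69.7, 47.4 and 42.8 CPM in Ctl replicates 0, 1 and 2 (log2 fold change -3.37 ± 0.26, edgeR adjusted p = 0.000626). Pklr, liver pyruvate kinase, Khk, ketohexokinase, and Pcx, pyruvate carboxylase, fell as well. Pfkfb1 and Pklr were called without each library, Khk was not without Li-KO replicate 1, Ctl replicate 1 or Ctl replicate 2, and Pcx kept its call only without Li-KO replicate 2. Mpc1, a subunit of the mitochondrial pyruvate carrier, rose to 14.3 ± 2.52 CPM in Li-KO, against 6.98 ± 0.619 CPM in Ctl (edgeR adjusted p = 0.0124), and its call ended without Ctl replicate 1 (adjusted p = 0.0587). Without that library the list held 0 increases and 2 decreases, and without Ctl replicate 2 it held 1 increase and 2 decreases. G6pdx, the entry enzyme of the pentose phosphate route to NADPH, rose too, a call that ended without Ctl replicate 1 or Ctl replicate 2, while Pgd and Idh1, other NADPH sources, did not pass. Slc25a1, the citrate carrier, averaged 207 ± 19.7 CPM in Li-KO and 212 ± 9.49 CPM in Ctl.

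Downstream, genes of desaturation, elongation and glycerolipid synthesis held 5 called increases and 0 decreases among 19 tested, with a median log2 fold change of 0.20. Of all genes tested, 6.11% were called higher and 5.9% lower. At an unadjusted p under 0.05, 6 were higher and 1 lower, against 14.6% and 14.8% of all genes. DESeq2 and limma-voom each called 5 higher and 0 lower. Of all 16533 genes DESeq2 called 1603 higher and 1555 lower, and limma-voom 989 and 1010. Acsl5, an acyl-CoA synthetase, rose to 864 ± 26.7 CPM in Li-KO, against 462.5 ± 47.6 CPM in Ctl (log2 fold change 0.90 ± 0.13, edgeR adjusted p = 0.00753). Gpam, Fads2, Dgat1 and Dgat2 also rose, Fads2, the delta-6 desaturase, to 1541, 1289 and 804 CPM in Li-KO replicates 0, 1 and 2, against 614, 447 and 525 CPM in Ctl replicates 0, 1 and 2. Acsl5 was called without each library, Gpam in all but the fit without Li-KO replicate 1, Fads2 and Dgat2 in none of the fits without Li-KO replicate 1, Ctl replicate 1 or Ctl replicate 2 (Fads2 adjusted p of up to 0.0895), and Dgat1 only without Li-KO replicate 2. The count of increases was 1 without Li-KO replicate 1, 2 without Ctl replicate 1 or Ctl replicate 2, and 2 with limma on log2(FPKM + 1). Scd1, the main hepatic stearoyl-CoA desaturase, was skipped in all libraries by the authors' software and has no value.

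Of 15 tested regulators and paralogs of the lipogenic enzymes, 2 rose and 0 fell, with a median log2 fold change of 0.22. The share called was 13.3%, near the 12% of all genes tested. At an unadjusted p under 0.05, 3 were higher and 2 lower, against 14.6% and 14.8% of all genes. DESeq2 called 2 higher and 2 lower, and limma-voom 2 higher and 0 lower. Of all 16533 genes DESeq2 called 1603 higher and 1555 lower, and limma-voom 989 and 1010. Acss3, the mitochondrial paralog of Acss2, rose to 54.9, 56.5 and 64.0 CPM in Li-KO replicates 0, 1 and 2, against 9.56, 9.55 and 15.9 CPM in Ctl replicates 0, 1 and 2 (log2 fold change 2.33 ± 0.22, edgeR adjusted p = 0.00111), and was called without each library. The other was Trib3, a pseudokinase, which lost its call without each library. Me2, the mitochondrial malic enzyme, averaged 5.13 ± 0.218 CPM in Li-KO and 5.61 ± 0.440 CPM in Ctl, with a log2 fold change of -0.13. Of 8 tested genes of mitochondrial fatty acid synthesis, a separate route with its own enzymes, 0 were called by edgeR (lowest adjusted p = 0.0512) and 5 were higher at an unadjusted p under 0.05, as 14.6% of all genes were. DESeq2 called 4 as higher and limma-voom 0, and the median log2 fold change was 0.40.

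**Figure D4:**
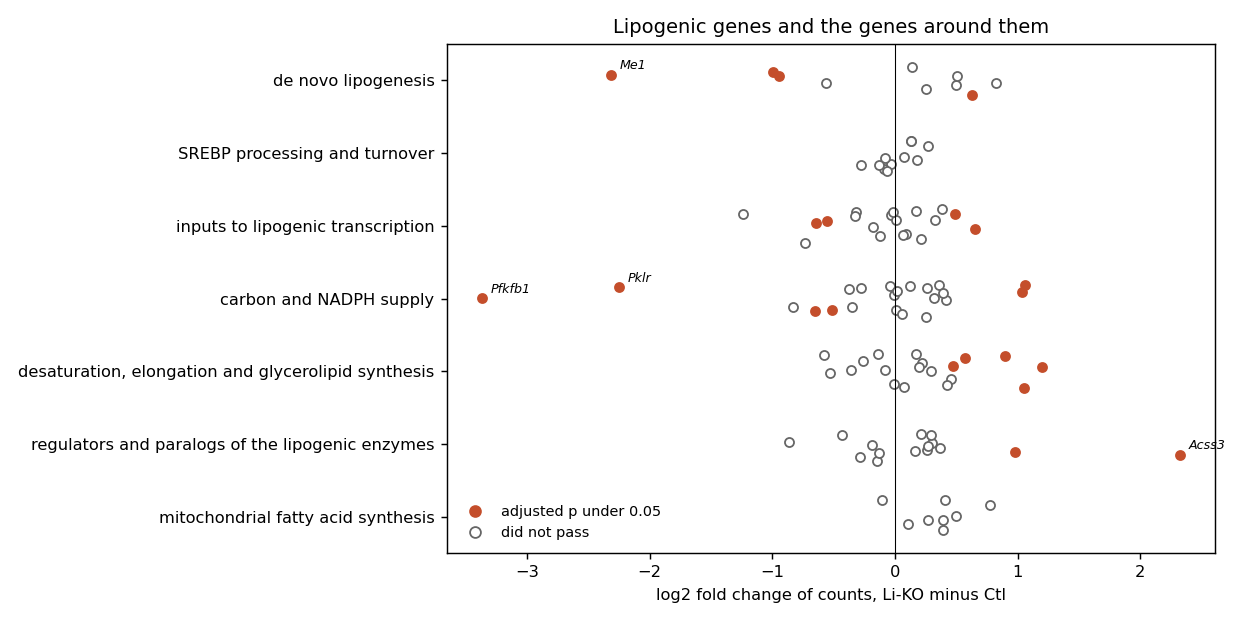
log2 fold change of counts, Li-KO minus Ctl (horizontal axis), for each tested gene of 7 lists (rows; vertical jitter has no meaning), filled where the edgeR adjusted p is under 0.05. SREBP processing has no filled point, and genes past 2 on the log2 scale, Me1, Pfkfb1, Pklr and Acss3, are named.

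Fat tissue also expresses lipogenic genes, so markers of adipocytes were read in the same libraries. Lep and Ucp1 were at 0 in every library. Adipoq had 0, 0 and 0 fragments in Li-KO replicates 0, 1 and 2, and 1, 5 and 0 in Ctl replicates 0, 1 and 2, and Plin1 had 8, 0 and 0 in Li-KO and 0, 2 and 0 in Ctl. The summed level of the 10 adipocyte markers was 4380.2 to 4567 CPM in Li-KO and 1873 to 4052 CPM in Ctl, nearly all of it Car3, which hepatocytes also express. None of the 4 adipocyte markers tested was called by edgeR, and 0 had an unadjusted p under 0.05. Tdo2 of 7 tested hepatocyte markers and Sox9 of 6 cholangiocyte markers fell. The summed cholangiocyte markers were at 48.0 to 152 CPM in Li-KO and 33.5 to 63.8 CPM in Ctl. Most of that sum was Spp1 in every library, at 144 of 152 CPM in Li-KO replicate 0 and 18.9 of 33.5 CPM in Ctl replicate 0. Krt19, Krt7, Epcam and Cftr were each at 2.32 CPM or less in every library. Of 6 erythroid markers none was called and 5 had an unadjusted p under 0.05 (29.4% of all genes did), with sums of 296 to 589 CPM in Li-KO and 740.1 to 810.5 CPM in Ctl. No marker of sinusoidal endothelium, Kupffer cells, lymphocytes and neutrophils, or stellate cells and fibroblasts was called by edgeR, with 1, 1, 0 and 2 at an unadjusted p under 0.05.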

How the data were processed

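Liver RNA of 6 libraries was sequenced after a stranded total RNA preparation, per the labels' protocols. STAR, Cufflinks, Cuffdiff and the mm10 build are named in the submitters' processing notes; the sources used here give no versions, annotation or strand setting of counting. The authors deposited 1 table with the estimated count of fragments (estimated counts before any scaling) and the FPKM of each gene and library. Of the count values 3.29% were not whole and were rounded. Libraries held 30132499 to 42782318 fragments, and genes that Cuffdiff skipped in any library (77) were left out. Of 48432 genes, 48051 matched a gene symbol, and GENCODE M21 gave positions.

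Counts were scaled by TMM and filtered by filterByExpr (minimum count 10, total 15), and 16533 genes were tested with edgeR 4.0.16 (quasi-likelihood test, R 4.3.3, Benjamini-Hochberg adjustment, called at adjusted p under 0.05), checked on simulated data. SE is the absolute log2 fold change over the square root of F. CPM uses TMM-scaled library sizes. Ratios used FPKM with exact permutation tests. Alternatives used DESeq2 1.42.0 and limma 3.58.1 (limma on log2(FPKM + 1) and log2(FPKM + 0.1), mean FPKM of at least 0.1), other scalings and filters, a replicate block, and each library left out in turn.

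The lipogenic genes and all lists were chosen with earlier results of these data known. Named in full are the 10 lipogenic genes, Klf15 and up to 3 called genes of smallest p in each other list. Also named are the 5 genes nearest to Srebf1 with mean CPM of at least 10, the symbols given above left out. Other genes named were chosen after their values were seen. Hsd17b8 was not analysed here, and Me3 was below the filter.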

Additional observations from a re-analysis of the deposited data

How the results depend on the processing

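Of 150 alternative log2 fold changes of the 10 lipogenic genes, 149 kept their direction. The other was Srebf1 without Li-KO replicate 0 (-0.20). Among the values counted as kept, Srebf1 was near 0 with limma on log2(FPKM + 1) (0.0045) and log2(FPKM + 0.1) (0.0036), and at 0.098 with limma-voom. All 180 of Klf15 and the 11 called genes named in full from the other lists kept theirs. Of the 5 genes nearest to Srebf1, without each library Myh10 ranged from -0.14 to 0.66, Dbp from -0.19 to 0.53 and Krt8-ps from -0.04 to 0.52, and Scap from -0.13 to 0.05. Beyond the values in the report, Acly was called by DESeq2 (0.83) and with the replicate block (0.76). Acss2 lost its call with upper quartile scaling (0.64) and with limma on log2(FPKM + 1) (0.57) or log2(FPKM + 0.1) (0.58), as Fasn did (-0.98, -1.05 and -1.05). Lipogenic genes called as higher numbered 2 by DESeq2 and with the block, and 0 with upper quartile scaling and either FPKM fit. Over all genes, DESeq2 called 1603 higher and 1555 lower, limma on log2(FPKM + 1) 577 and 595, and on log2(FPKM + 0.1) 630 and 641. Genes feeding into lipogenic transcription numbered 1 higher with log2(FPKM + 1) and with the block, and 1 lower with DESeq2 size factors, upper quartile scaling and either FPKM fit. Carbon and NADPH supply had 4 higher by DESeq2 and with a mean CPM of at least 1. Desaturation and glycerolipid synthesis had 2 higher in either FPKM fit. Regulators and paralogs had 1 higher with no filter, either FPKM fit and the block, and 2 lower by DESeq2 and 1 lower with no filter. Mitochondrial fatty acid synthesis had 4 higher by DESeq2, and 1 with DESeq2 size factors or a mean CPM of at least 1. The cause of these shifts was not tested.

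Without each library in turn, log2 fold changes ranged from -0.20 to 0.59 for Srebf1, 0.51 to 1.09 for Acly, 0.51 to 0.77 for Acss2, -1.03 to -0.85 for Acaca, 0.35 to 0.67 for Acacb, -1.17 to -0.76 for Fasn, -2.80 to -1.99 for Me1, -0.75 to -0.31 for Elovl6, 0.07 to 0.29 for Thrsp and 0.05 to 0.88 for Pnpla3. Calls over all genes ranged from 198 to 1102 higher and 234 to 1447 lower, both lowest without Ctl replicate 1 and highest without Li-KO replicate 2. Ranges of calls were 0 to 2 higher and 2 to 3 lower for the lipogenic genes, 0 to 0 and 0 to 1 for SREBP processing, 0 to 3 and 0 to 3 for inputs to transcription, 0 to 3 and 2 to 4 for carbon and NADPH supply, 1 to 5 and 0 to 1 for desaturation and glycerolipid synthesis, 1 to 1 and 0 to 1 for regulators, and 0 to 2 and 0 to 0 for mitochondrial synthesis. The log2 ratio differences ranged from 1.26 to 1.73 for Acacb over Acaca, 0.78 to 1.42 for Thrsp over Mid1ip1, and -0.42 to 0.072 for Acss2 over Acly, reversed (0.072) without Li-KO replicate 0.

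The labels do not say that replicate numbers pair libraries, and deviations of same-numbered libraries correlated at 0.02, 0.08 and 0.07. With the replicate block 956 genes were called higher and 1015 lower. The lowest count behind a lipogenic gene was 63 fragments, for Pnpla3.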
